A study of Mus musculus with 6 samples.

Results

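Cluster 4 is the group of cells numbered 4 in the deposited clustering of single-cell RNA profiles from mouse T cell cultures, and its cells were taken by that number alone. It held 1258 of 27258 cells. Of the remaining cells, 25976 were in clusters 0, 1, 2, 3 and 5, called the other cells here, and 24 were in cluster 6. The cultures were started from naive CD4+ T cells of mouse spleen and kept for 48 h in 3 ng/ml TGF-beta (the human protein), 20 ng/ml IL-4 and 20 µg/ml antibody to IFN-gamma, conditions that drive T cells towards the Th9 state. Each library was made from CD4 bead-purified cells with droplet-based 3' chemistry. Knockout (KO) libraries D, E and F came from Cblb-/- T cells, and wild-type (WT) libraries A, B and C from control T cells given the same culture. The letters are those of the libraries' sequencing indices. The labels used here give no age, strain or deleted part of Cblb, and do not say whether libraries came from separate mice or cultures, so the p-values measure the spread between libraries, which may be technical.

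Th9 cells are CD4+ T helper cells named for the cytokine IL-9, which they make when TGF-beta and IL-4 signals meet T cell receptor stimulation. Freshly stimulated T cells first secrete IL-2, the growth factor that acts back on them through the IL-2 receptor and STAT5. CCL20 is the chemokine that binds the receptor CCR6, and it is best known in T cells as a product of Th17 cells. Cbl-b is an E3 ubiquitin ligase that restrains signalling from the T cell receptor and CD28, and T cells that lack it make IL-2 with less need for CD28.

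The promoters of Ccl20 and Il2, the pair of secreted factors that mark cluster 4, are shown because both genes are switched on by T cell receptor signals. Each sequence is the 250 bases before the annotated start, 5′ to 3′ on the gene's strand, from RefSeq on build GRCm38.p6. Capitals mark GGAAA or its complement TTTCC, the core bound by NFAT factors. The first lies at chr1:83116516-83116765 on the plus strand and the second at chr3:37125955-37126204 on the minus strand.
Ccl20: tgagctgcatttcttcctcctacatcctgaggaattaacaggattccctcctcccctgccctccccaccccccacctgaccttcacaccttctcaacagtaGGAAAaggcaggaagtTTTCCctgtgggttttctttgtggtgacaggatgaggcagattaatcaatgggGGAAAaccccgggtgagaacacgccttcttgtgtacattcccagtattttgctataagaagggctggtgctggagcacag
Il2: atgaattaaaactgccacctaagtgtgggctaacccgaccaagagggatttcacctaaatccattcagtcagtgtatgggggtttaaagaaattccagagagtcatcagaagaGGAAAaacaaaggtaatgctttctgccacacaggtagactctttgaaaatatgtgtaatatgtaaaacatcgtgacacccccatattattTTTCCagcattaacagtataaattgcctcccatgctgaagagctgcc
The Ccl20 sequence held 3 matches, beginning 149, 133 and 80 bases before the start, and the Il2 sequence held 2, at 137 and 47 bases before it. On both strands this core was found in 55.6% of 32851 mouse promoters of the same length. A match is a string of letters in this window and not a measured binding site.

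Levels are given in ppm: the corrected counts of a gene summed over the cluster 4 cells of a library, per 1000000 corrected counts of all genes in those cells. On this scale, 1 corrected count per cell equals 26.1 ppm. Median raw depth was 39306 to 43755 UMIs in the cluster 4 cells of a library, against 35343 to 39397 in its other cells, so cluster 4 was the deeper in every library. The median over cluster 4 cells was 41693 UMIs in KO and 41732 UMIs in WT. Cluster 4 counted 195, 353 and 345 cells in KO libraries D, E and F and 136, 112 and 117 cells in WT libraries A, B and C. That was 5.70%, 6.23% and 6.37% of all cells in the KO libraries and 3.49%, 2.60% and 2.57% in the WT libraries. No test was run on these shares. Of all cells, 76 barcodes occurred in more than 1 library, and 8 cluster 4 cells carried such a barcode.

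The cells carried T cell markers. All 10 genes of the T cell list were present, and they summed to 3024 to 3131 ppm in KO and 3361 to 3504 ppm in WT. Cd4 lay between 76.0 and 100.5 ppm over the 6 libraries. Markers of other cell types were low: the list for gamma delta T cells summed to at most 0.68 ppm, that for NK cells to at most 0.68 ppm, that for mast cells and basophils to at most 1.16 ppm, and that for erythroid cells to 0. The CD8 T cell list summed to at most 9.50 ppm. B cell genes summed to at most 27.5 ppm, macrophage genes to at most 41.0 ppm and dendritic cell genes to at most 96.7 ppm. No gene of the neutrophil list was measured. The defining B cell gene Ms4a1 and the myeloid adaptor gene Tyrobp were at 0.

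What set cluster 4 apart was expression of Ccl20. The comparison with the other cells of the same library is a description without a test, because the clustering used these genes. Ccl20 measured 779, 814 and 905 ppm in cluster 4 of KO libraries D, E and F, and 705, 708 and 688 ppm in WT libraries A, B and C. The other cells averaged 16.6 ppm in KO and 8.0 ppm in WT. Every library of cluster 4 was far above its other cells, by a mean of 5.94 on the log2 scale (range 5.44 to 6.59 over libraries). The next highest cluster, cluster 5, averaged 32.1 ppm over the 6 libraries, against 767 ppm in cluster 4.

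The per-cell values showed a population with a sharp lower edge. Each cluster 4 cell had a Ccl20 corrected count of at least 4. Medians per cell were 21, 20 and 23 in KO libraries D, E and F and 18, 18 and 17 in WT libraries A, B and C, and the highest cell reached 548, in KO library E. A corrected count of 10 or more was found in 1133 of the 1258 cells. Cluster 4 held 66.9% to 78.0% of all Ccl20 counts of a library and 81.9% to 90.4% of its cells at 10 or more. Among the other cells 0.928% reached 10 in KO and 0.376% in WT, and 0 of 24 cells did in cluster 6, which had a median of 24759 UMIs.

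Il2 was high but was shared with another cluster. It measured 1184, 1234 and 1623 ppm in cluster 4 of KO libraries D, E and F and 987, 939 and 916 ppm in WT libraries A, B and C, with the other cells at means of 427 ppm in KO and 304 ppm in WT. Cluster 4 exceeded its other cells in each library, by a mean of 1.65 on the log2 scale (range 1.54 to 1.80). Cluster 3 averaged 1891 ± 754 ppm in KO and 645 ± 66.3 ppm in WT (SD, n = 3 each), and cluster 4 averaged 1347 ± 240 ppm in KO and 947 ± 36.3 ppm in WT. Cluster 4 was the highest cluster in 4 of 6 libraries. Clusters 3 and 4 came from the same libraries, and their difference in Il2 within libraries was not tested.

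Single cells of cluster 4 varied widely in Il2 and mostly carried it with Ccl20. Il2 corrected counts ran from 0 to 629 per cell, with medians of 28, 27 and 38 in KO libraries D, E and F and 30, 27.5 and 21 in WT libraries A, B and C. Cells with at least 10 of both Ccl20 and Il2 made up 76.9%, 67.7% and 78.6% of KO cluster 4 and 70.6%, 64.3% and 66.7% of WT cluster 4. Across cells within a library, Spearman's rho between the genes was 0.24, 0.41 and 0.36 in KO and 0.35, 0.48 and 0.43 in WT. Those cells share a library and a depth correction, and rho is given as a description. Il2 reached 10 in 80.0% ± 4.95 of KO and 73.5% ± 3.29 of WT cluster 4 cells (SD, n = 3 each). An exact two-sided permutation test over libraries gave p = 0.2 for that difference, where 0.1 is the smallest p that 3 against 3 allows. Among other cells 31.0% in KO and 29.8% in WT reached that value, as did 1 of 24 cells (4.17%) in cluster 6.

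The remaining markers were lower in level. Cib2, which encodes a calcium- and integrin-binding protein, measured 14.9, 20.7 and 20.7 ppm in KO libraries D, E and F and 36.3, 22.6 and 33.7 ppm in WT libraries A, B and C, with the other cells at 3.99 ppm in KO and 5.73 ppm in WT. Igfbp7, a secreted protein that binds insulin-like growth factors, measured 61.8, 71.0 and 50.6 ppm in KO and 134, 86.8 and 105 ppm in WT. KO lay below WT for both genes, without overlap. Bdh2, an oxidoreductase gene, measured 87.1, 91.6 and 98.7 ppm in KO and 74.5, 56.3 and 57.6 ppm in WT. Cd70, the TNF family ligand of CD27, measured 33.8, 28.8 and 36.7 ppm in KO and 15.4, 9.08 and 4.69 ppm in WT. KO lay above WT for these, again without overlap. Cluster 4 was the highest cluster in 6 of 6 libraries for Cib2, Igfbp7 and Bdh2 and in 4 of 6 for Cd70. Cluster 3 had the next highest mean over the 6 libraries for each of these genes. Cib2 averaged 24.8 ppm in cluster 4 and 9.40 ppm in cluster 3, and Igfbp7 84.8 ppm and 56.0 ppm. Bdh2 averaged 77.7 ppm and 48.2 ppm, and Cd70 21.4 ppm and 18.2 ppm.

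**Figure D1:**
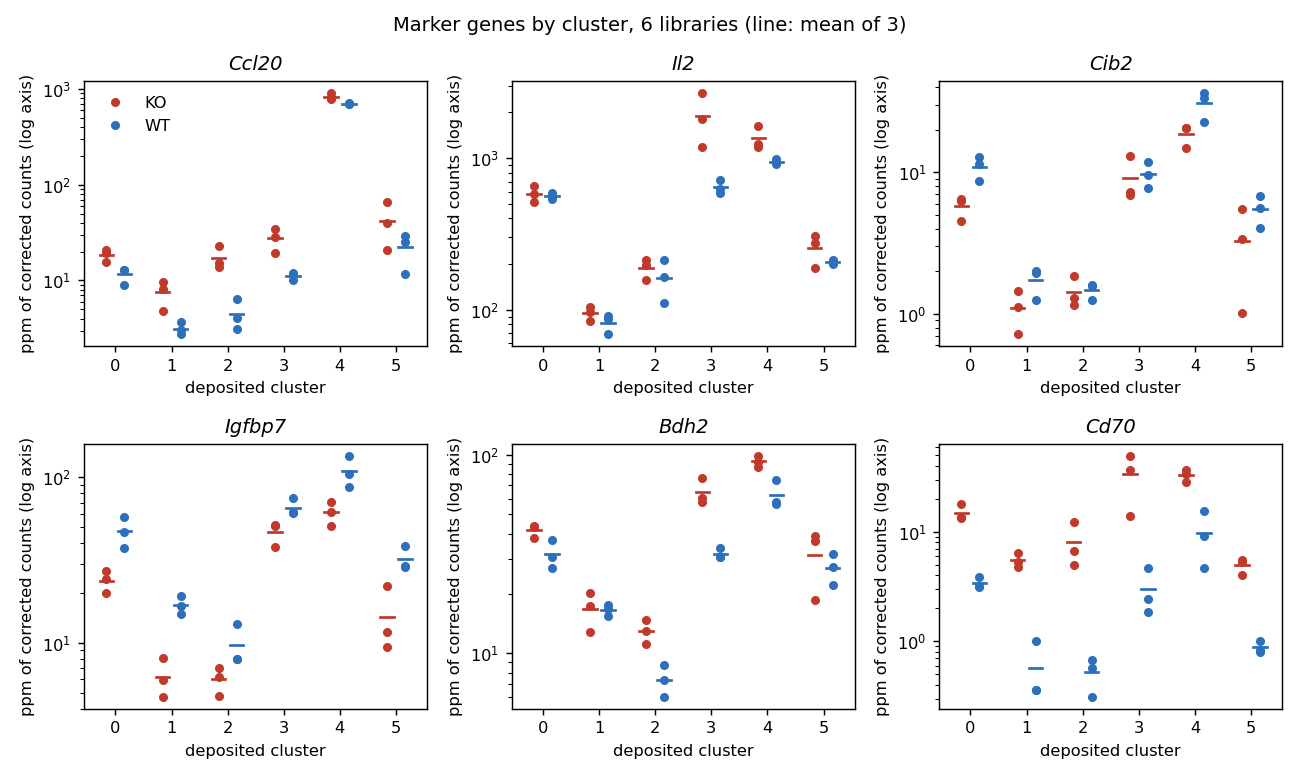
Level of each of the 6 marker genes in clusters 0 to 5, in ppm of summed corrected counts on a log axis; each point is 1 library, with KO left of WT in each cluster. Ccl20 separates cluster 4 from every cluster, with a mean of 767 ppm against 32.1 ppm in cluster 5, while Il2 in cluster 3 of KO libraries averages 1891 ppm and is above the 1347 ppm of KO cluster 4.

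The genes that ran with the 2 leading markers differed. Over 36 means of 1 cluster in 1 library, the genes most like Ccl20 by Pearson's r included Oxsr1 (0.88), Daam1 (0.84), Cd84 (0.83) and Cd37 (0.82), out of 8133 genes compared. Those most like Il2 were Arhgap31 (0.95), Ifih1 (0.94), Rnd3 (0.94), Rgs2 (0.93) and Tespa1 (0.93). The points share libraries and are a description.

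Across the transcriptome, 56 genes were higher in cluster 4 in all 6 libraries with a mean difference of at least 1 on the log2 scale, which is 0.645% of 8684 genes described, and 32 were lower by as much (0.368%). After Ccl20 and Cib2, the highest mean differences were those of Pxdc1 (2.01), Igfbp7 (1.75), Mpzl2 (1.75), Cd5l (1.68), Il2 (1.65), Dsp (1.64), Cd70 (1.63), Dmxl2 (1.58), Kcnk10 (1.55) and Pou2af1 (1.55). Mpzl2 and Dsp encode adhesion proteins best known in epithelia, and Pou2af1 is a transcriptional coactivator best known in B cells. Csf1, the macrophage growth factor M-CSF, measured 48.5, 54.2 and 31.3 ppm in KO libraries D, E and F and 38.4, 27.7 and 22.6 ppm in WT libraries A, B and C, against means of 16.4 ppm in KO and 8.79 ppm in WT in other cells. It was highest in cluster 4 in 6 of 6 libraries, with a mean of 37.1 ppm against 19.7 ppm in cluster 0, the next highest.

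At the low end stood the signature cytokine of the culture. Il9 measured 44.4, 23.01 and 57.9 ppm in cluster 4 of KO libraries D, E and F and 21.1, 10.0 and 14.5 ppm in WT libraries A, B and C, against means of 766 ppm in KO and 234 ppm in WT in the other cells. The mean difference was -4.04 on the log2 scale, and cluster 4 was the lowest cluster in 5 of 6 libraries. The highest, cluster 2, averaged 3455 ppm. Also low were Sgk1 (-2.35), a kinase gene, Batf3 (-2.26), a bZIP transcription factor gene, Akr1c18 (-1.98), a steroid dehydrogenase gene, Foxp3 (-1.96), which specifies regulatory T cells, Socs2 (-1.90), a feedback inhibitor induced by STAT5, Fcmr (-1.80), which encodes a receptor for IgM, and Ikzf4 (-1.75), a regulatory T cell factor.

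**Figure D2:**
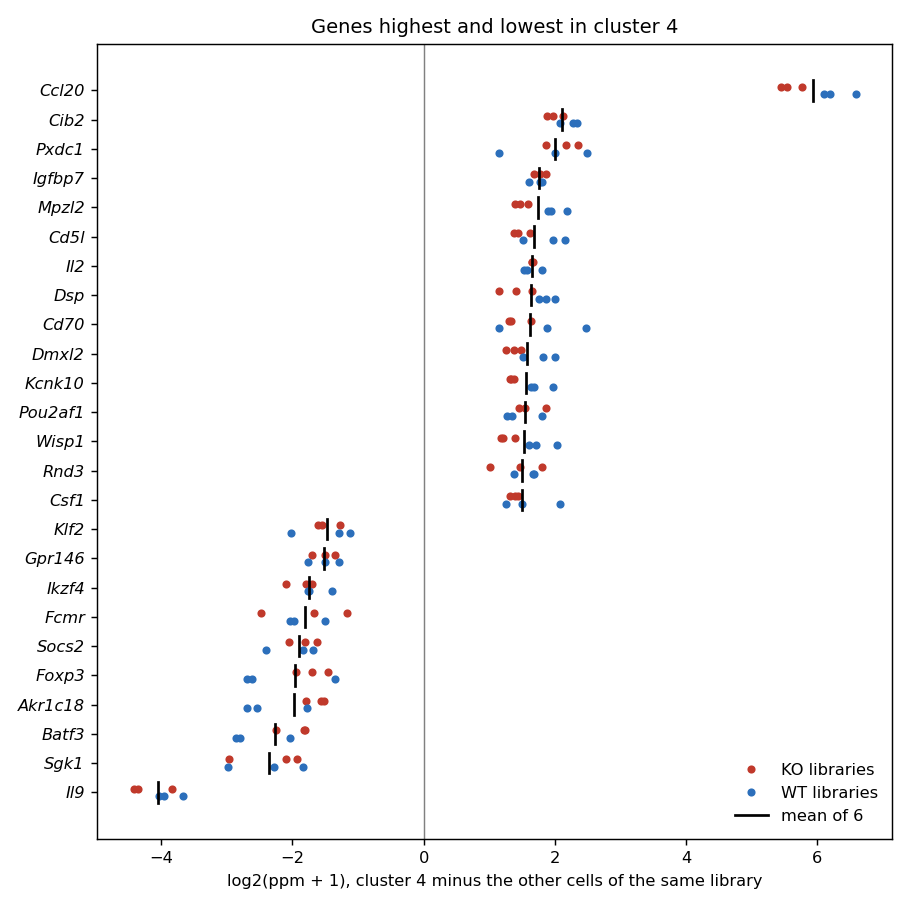
Log2 difference in level between cluster 4 and the other cells of the same library for the genes with the highest and lowest mean differences; points are the 6 libraries, KO and WT in separate colours. Ccl20 lies apart at a mean of 5.94, and Il9 is the lowest at -4.04.

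The IL-2 response genes ran opposite to Il2 itself. Of 16 described genes on the IL-2 and STAT5 response list, 0 were higher and 14 lower than in the other cells in all 6 libraries, where 21.9% of all genes were higher and 10.8% lower. The list's median difference was -0.66 on the log2 scale, against 0.04 over all genes. Il2ra, the alpha chain of the IL-2 receptor and itself a STAT5 target, measured 258, 207 and 279 ppm in KO libraries D, E and F and 142, 132 and 118 ppm in WT libraries A, B and C. The other cells averaged 425 ppm in KO and 288 ppm in WT, and cluster 4 was the lowest of the clusters for Il2ra in 6 of 6 libraries. Bcl2 (-1.16), which protects from cell death, Socs3 (-1.23), another feedback inhibitor, and Gzmb (-1.22), a granule protease gene, were lower too.

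Th17 genes were among those that ran with Ccl20. Of 11 described, 6 were higher in all 6 libraries and 0 were lower, beside 21.9% and 10.8% of all genes. Their median difference was 0.96 on the log2 scale. Among them were Ccl20, its receptor gene Ccr6 (1.0), Tmem176a (0.99), Tmem176b (0.96) and the transcription factor gene Maf (0.69). Cluster 0 was close to cluster 4 for the Tmem176 genes. Tmem176a averaged 151 ppm in cluster 4 and 126 ppm in cluster 0, and Tmem176b 129 ppm and 109 ppm, with cluster 4 the highest in 6 of 6 libraries for both. Ccr6 measured 49.8, 41.3 and 34.7 ppm in KO libraries D, E and F and 68.4, 45.9 and 66.8 ppm in WT libraries A, B and C, against means of 21.3 ppm in KO and 28.2 ppm in WT in other cells. Cluster 4 was the highest cluster for Ccr6 in 6 of 6 libraries, with a mean of 51.1 ppm against 34.0 ppm in cluster 3, the next highest.

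Tfh genes and ligands of the TNF family were also high. For the Tfh list, 9 of 10 described genes were higher in all libraries and 0 lower (median 0.87), among them Bcl6 (1.05), the factor that specifies follicular helper cells, Id3 (1.04) and Pdcd1 (0.81), which encodes PD-1. TNF family ligands were higher for 7 of 11 and lower for 2 (median 0.62). Fasl (1.15), which kills Fas-bearing cells, Tnfsf14 (1.09), Tnfsf9 (1.08), the ligand of 4-1BB, Cd40lg (1.0), which activates B cells, and Tnf (0.62) were on the higher side, whereas the lymphotoxin genes Lta (-0.79) and Ltb (-0.44) were lower. Among chemokines, Ccl3 (1.19) and Ccl4 (0.84) were also above the pooled other cells, but cluster 3 held more of both. Ccl3 averaged 42.0 ppm in cluster 4 and 271 ppm in cluster 3, and Ccl4 averaged 161 ppm in cluster 4 and 1031 ppm in cluster 3. Inhibitory receptors were higher for 8 of 11 and lower for 1. These list counts stand beside 21.9% of all genes higher and 10.8% lower in all libraries.

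Cell cycle genes differed by small amounts. S phase genes were lower in all libraries for 28 of 42, with a median of -0.17 on the log2 scale, and G2 and mitosis genes were higher for 24 of 42, with a median of 0.13. The Th9 factor list gave 2 higher and 8 lower of 20. Of all genes described, 21.9% were higher and 10.8% lower in all libraries.

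Within cluster 4, knockout and wild-type cells were compared with limma across the 8612 genes that averaged 5 ppm or more, on log2(ppm + 1), so that fold changes of low genes are understated. At an adjusted p under 0.05, 459 genes were higher in KO (5.33%) and 643 were lower (7.47%). Of these, 61 were higher and 26 lower by at least 2-fold. With median-of-ratios scaling the split was 519 higher and 485 lower. Leaving out 1 library lowered a count by over 1.5-fold for these libraries: 237 higher and 285 lower without KO library D, 284 and 285 without WT library A, 245 and 253 without WT library C, and 412 lower without WT library B.

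Cblb transcripts were fewer in knockout cells. They measured 20.9, 16.4 and 18.4 ppm in KO libraries D, E and F and 33.2, 34.7 and 37.1 ppm in WT libraries A, B and C. The groups did not overlap, and limma gave a log2 fold change of -0.88 (SE 0.11, adjusted p = 1.8e-04). A corrected count of at least 1 was found in 45.4% ± 4.93 of KO and 69.4% ± 3.05 of WT cluster 4 cells (SD, n = 3 each, exact permutation p = 0.1, 0.171 after adjustment over 24 shares, as for the other shares with that p). Since 3' counts outside a deleted part would remain, the residual level checks the genotype labels only in part.

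Of the 6 markers, 4 rose and 2 fell in knockout cluster 4. Using limma, Il2 rose by 0.49 on the log2 scale (SE 0.092, adjusted p = 0.0032) and Bdh2 by 0.56 (SE 0.10, adjusted p = 0.0024). Cd70 rose by 1.79 (SE 0.26, adjusted p = 5.1e-04), and a corrected count of at least 1 was found in 38.8% ± 4.95 of KO and 19.6% ± 7.23 of WT cells (SD, n = 3 each, exact permutation p = 0.1), with 0 of 24 in cluster 6. Igfbp7 fell by 0.81 (SE 0.14, limma adjusted p = 0.0016). Ccl20 rose by 0.25 (SE 0.063, adjusted p = 0.020) and Cib2 fell by 0.68 (SE 0.16, adjusted p = 0.015) by limma. Each cluster 4 cell had a Ccl20 corrected count of at least 4. The part of that bound in the Ccl20 fold change was not tested. The Ccl20 call was lost without KO library F or any WT library, and the Cib2 call without KO library D or WT library A or C and with cells of like raw depth, where its log2 fold change was -0.39. Both were also lost with no filter on low values.

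Secreted factors included the largest rises. Csf2, which encodes the myeloid growth factor GM-CSF, measured 54.2, 26.3 and 27.0 ppm in KO libraries D, E and F and 0.58, 0.70 and 0.22 ppm in WT libraries A, B and C. The WT values rest on 3, 3 and 1 corrected counts, so the fitted log2 fold change of 4.55 (SE 0.25, limma adjusted p = 5.1e-08) depends on the pseudocount and was 5.92 with 0.1 ppm and 2.07 with 10 ppm. A count of at least 1 was found in 22.8% ± 8.58 of KO and 1.91% ± 0.947 of WT cells (SD, n = 3 each, exact permutation p = 0.1), and in 1 of 24 cells of cluster 6. At 10 or more were 30 of 893 KO cells and 0 of 365 WT cells. By counting error alone, a count of 0 allows a share of up to 2.21%, 2.68% and 2.56% in WT libraries A, B and C. In a sum over cells, more positive cells and more RNA per cell cannot be told apart, and only part of the KO cells was positive.

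Other cytokine genes rose too. Il13, a type 2 cytokine gene, measured 34.0, 5.05 and 32.0 ppm in KO libraries D, E and F and 0.38, 0 and 0 ppm in WT libraries A, B and C, and rose in the limma fit (log2 fold change 4.10, SE 0.48, adjusted p = 1.0e-04, 6.72 with a pseudocount of 0.1 ppm and 1.58 with 10 ppm). Library E was well below the other KO libraries. A count of at least 1 was found in 18.3% ± 10.7 of KO and 0.490% ± 0.849 of WT cluster 4 cells (SD, n = 3 each). In cluster 6 it was found in 6 of 24 cells (25.0%), at a median of 24759 UMIs. That cluster pools KO and WT libraries, and whether it reflects free RNA was not tested. Il13 was lower in cluster 4 than in the other cells, which averaged 74.8 ppm in KO and 1.74 ppm in WT. Il17a, the Th17 cytokine gene, measured 30.1, 4.38 and 9.22 ppm in KO and 0, 0 and 0.22 ppm in WT. Its limma call (adjusted p = 2.1e-04) rested on 5 of 893 KO cells with a count of at least 10: the highest cell alone gave 91.6% of the count in library D, 98.3% in E and 74.6% in F. Il1a, an inflammatory alarm cytokine, measured 37.4, 17.7 and 29.7 ppm in KO and 5.96, 6.05 and 7.15 ppm in WT and rose by 1.93 (SE 0.20, limma adjusted p = 4.2e-05).

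Il9 itself rose within cluster 4 by 1.36 on the log2 scale (SE 0.27, limma adjusted p = 0.0044) while it stayed below the other cells of its own library in every case. Its rise in the other cells was 1.68, and the difference of -0.32 did not pass (limma adjusted p = 0.15); under the equal-weight mean of the clusters it was 0.56 (adjusted p = 0.094). An Il9 count of at least 1 was found in 56.6% ± 17.9 of KO and 22.6% ± 2.58 of WT cluster 4 cells (SD, n = 3 each) and in 21 of 24 cells (87.5%) of cluster 6. Both cluster 4 shares were below that of cluster 6, which was not shown to measure free RNA. Droplet libraries carry free RNA. The part of free RNA in the Il9 and Il13 levels of cluster 4 was not tested. Over the cytokine list, 8 of 15 tested genes were higher in KO and 1, Il16, was lower, beside 5.33% and 7.47% of all tested genes.

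**Figure D3:**
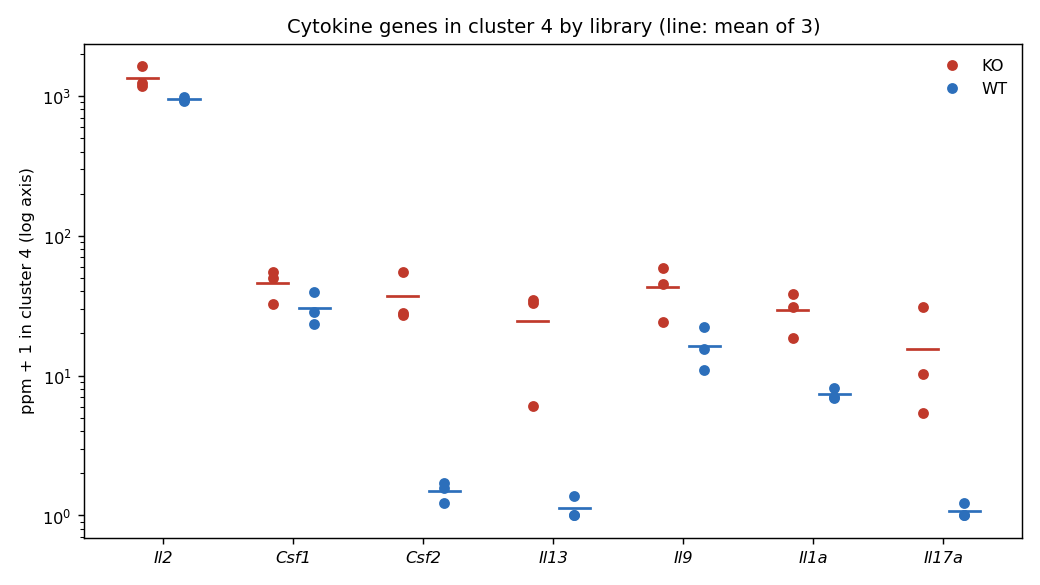
Levels of the cytokine genes Il2, Csf1, Csf2, Il13, Il9, Il1a and Il17a in cluster 4, as ppm + 1 on a log axis. Points are libraries, KO left of WT, and lines are group means. Csf2 lies between 26.3 and 54.2 ppm in KO libraries and under 1 ppm in WT libraries.

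Receptor genes moved in both directions. Il2ra rose by 0.91 on the log2 scale (SE 0.099, limma adjusted p = 5.5e-05). On the IL-2 and STAT5 response list 4 of 14 tested genes rose, namely Il2ra, Socs1, Ccnd2 and Bcl2l1, and 1 fell, the IL-4 receptor gene Il4ra. Tfh genes, which were high in cluster 4, gave 1 higher and 5 lower of 10: Slamf6 fell by 0.92, Icos by 0.65, Id3 by 0.64, Btla by 0.62 and Tox by 0.52, and Cd40lg rose by 0.76. Th17 genes gave 3 higher and 4 lower of 11, with Il17a, Stat3 and Ccl20 up and Ahr, Tmem176b, Ccr6 and Tmem176a down. NF-kB genes gave 6 higher and 2 lower of 22, led by Nfkb2, the p100 precursor, at 174, 135 and 143 ppm in KO libraries D, E and F and 85.9, 78.4 and 83.3 ppm in WT libraries A, B and C. For Nfkb2 the groups were wide apart. The higher NF-kB count was 3 without KO library D or any WT library, and the lower Th17 count was 2 without WT library A or C. Over all tested genes, 5.33% were higher in KO and 7.47% lower.

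Among the other genes with the highest fold changes were Gatm, which encodes an enzyme of creatine synthesis, and Nr4a2, an orphan nuclear receptor gene that T cell activation induces. Gatm measured 51.8, 74.0 and 82.0 ppm in KO libraries D, E and F and 6.92, 13.3 and 15.2 ppm in WT libraries A, B and C (log2 fold change 2.50, SE 0.22, limma adjusted p = 8.5e-06). Nr4a2 measured 50.5, 25.3 and 49.9 ppm in KO and 8.84, 7.68 and 8.71 ppm in WT (log2 fold change 2.13, SE 0.20, limma adjusted p = 1.4e-05). Both were picked among called genes whose KO and WT values did not overlap. Ntrk3 (2.46), a neurotrophin receptor gene, Ly6a (2.38), Il1rn (2.19), the IL-1 receptor antagonist, Inhba (2.09), the activin A subunit, Slc7a3 (2.01), a cationic amino acid transporter, and Cth (1.96), which makes cysteine, rose too. The Ly6a call was lost without WT library B or C and with no filter on low values, and without KO library F its mean was under the minimum for a test.

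The strongest falls were those of Mndal (-2.17), an interferon-inducible gene, at 2.0, 3.56 and 1.66 ppm in KO libraries D, E and F and 17.5, 9.54 and 16.1 ppm in WT libraries A, B and C, and of Trmo (-2.04), a tRNA methyltransferase gene. Trmo averaged 1.62 ppm in KO and 9.80 ppm in WT. Without WT library A or B, its mean over the libraries was under the minimum for a test. Ifi203 (-1.67) is of the same gene family as Mndal and overlaps it in the annotation, and how reads that match both were counted was not checked. Nrgn, a calmodulin-binding protein gene, measured 10.3, 13.7 and 10.7 ppm in KO and 34.6, 30.3 and 33.5 ppm in WT (log2 fold change -1.43, SE 0.12, limma adjusted p = 8.6e-06). Nt5e, the CD73 ectoenzyme that makes adenosine, measured 17.9, 35.3 and 22.6 ppm in KO and 53.8, 55.9 and 62.8 ppm in WT (log2 fold change -1.21). Nrgn and Nt5e, like the other falls named here, were picked among called genes whose KO and WT values did not overlap. Sfn (-1.53), Apol9b (-1.47), Hist1h2bj (-1.33), Lax1 (-1.27), Nrn1 (-1.25) and Hist1h3a (-1.22) also fell, and the Sfn call was lost without WT library B and with no filter on low values.

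**Figure D4:**
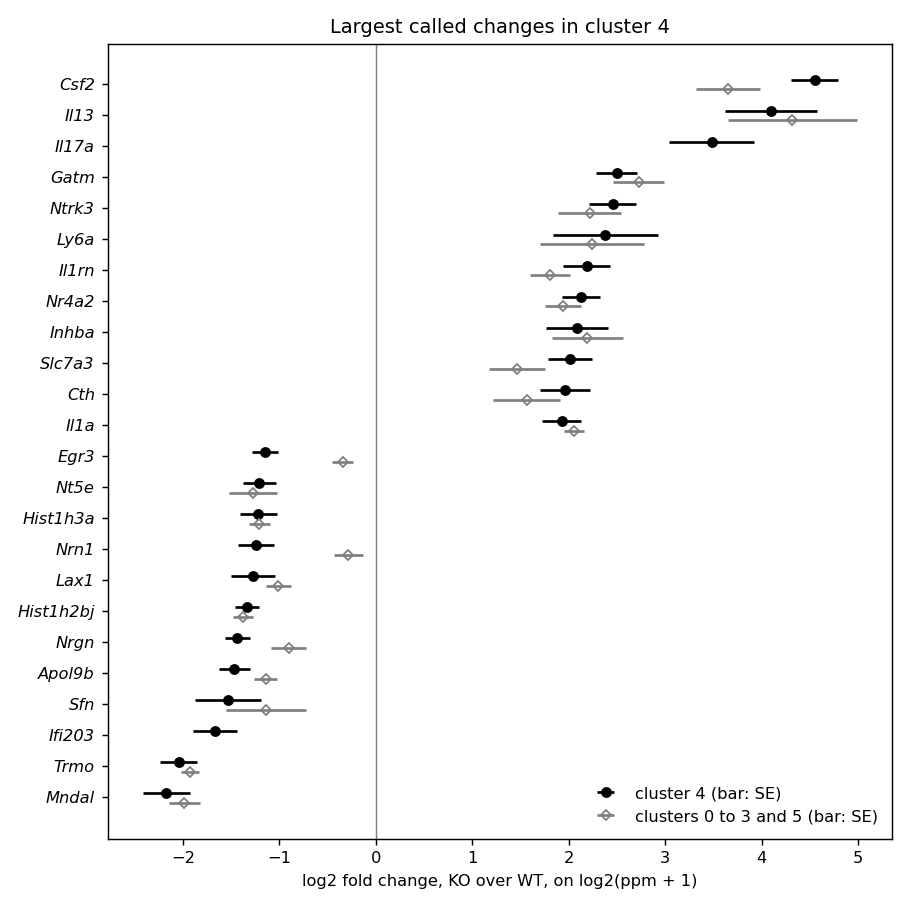
Log2 fold change, KO over WT, with SE bars, for the largest called rises and falls in cluster 4 among genes whose KO and WT libraries did not overlap. Each gene has a row, with cluster 4 and, where tested, the other cells as separate symbols. Points right of 0 are higher in KO. In cluster 4, Csf2 is the highest of the genes shown at 4.55, and Mndal the lowest at -2.17.

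Several gene groups had calls mostly on the lower side. Beside them, 5.33% of all tested genes were higher in KO and 7.47% lower. Replication-dependent histone genes gave 0 higher and 9 lower of 16, with a median of -0.51 on the log2 scale against -0.03 over all tested genes. These genes are near-identical copies, and how reads that match several of them were counted was not checked. Genes of the unfolded protein response gave 0 higher and 10 lower of 20 (median -0.24), among them the folding enzymes Pdia3 (-0.65), Sdf2l1 (-0.61), Pdia4 (-0.58) and the lectin chaperone Calr (-0.53). Cholesterol and fatty acid synthesis gave 0 higher and 7 lower of 25, with Dhcr7 (-0.95) and Nsdhl (-0.70), both enzymes of the late cholesterol pathway, the largest. Respiratory chain genes gave 1 higher and 17 lower of 55, and actin and adhesion genes 4 higher and 10 lower of 29. The lower count for the respiratory chain was 3 without KO library D or WT library C, 6 without WT library B, 9 without WT library A and 11 with median-of-ratios scaling. For the unfolded protein response it was 6 without WT library A or C, for cholesterol synthesis 4 without WT library C, for actin and adhesion 6 without WT library C, and for histones 5 to 6 without any library but KO library E.

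Of the lists counted, that of ATF4 targets and amino acid supply had the most rises. Of its 22 tested genes, 13 were higher and 0 were lower, beside 5.33% and 7.47% of all tested genes. The list's median was 0.55. ATF4 is the transcription factor of the integrated stress response, which raises genes for amino acid synthesis and transport. Asns, asparagine synthetase, measured 179, 170 and 125 ppm in KO libraries D, E and F and 53.6, 59.6 and 38.6 ppm in WT libraries A, B and C, a log2 fold change of 1.63 (SE 0.14, limma adjusted p = 9.4e-06). Every KO library exceeded every WT library. Nupr1, a stress-response gene, rose by 1.32 and Sesn2, a leucine sensor, by 1.01. Mthfd2, an enzyme of mitochondrial folate metabolism, measured 432, 486 and 394 ppm in KO and 290, 292 and 200.1 ppm in WT. Atf4 mRNA itself did not pass (0.29, limma adjusted p = 0.065).

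Whether the knockout effect differed between cluster 4 and the other cells was tested in 1 limma fit over 12 sums, with the library as a block. Of 8544 genes, 84 had a higher effect in cluster 4 (0.983%) and 167 a lower one (1.95%). The make-up of the other cells differed with genotype: cluster 1 made up 18.8% to 33.2% of them in KO and 44.6% to 47.4% in WT, and cluster 2 made up 10.7% to 19.1% in KO and 3.96% to 6.08% in WT. An equal-weight mean of the clusters, which removes those proportions, gave 67 higher and 125 lower. With cells of like raw depth alone the counts were 33 and 72, with median-of-ratios scaling 137 and 144, and with no filter on low values limma called 0 and 0, with 1931 of 17363 genes at an unadjusted p under 0.05. Leaving out 1 library moved the counts by over 1.5-fold for KO library D (31 and 75), WT library C (38 and 87) and, for the higher calls, KO library E (43) and WT library A (50).

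ATF4 genes had the larger knockout effect in cluster 4. Over all genes tested, 0.983% had a higher effect there and 1.95% a lower one. The difference passed for 13 of 22 tested genes upward and 0 downward; this was also 13 and 0 with the equal-weight mean and 8 and 0 with cells of like depth. Nupr1 measured 66.6, 97.1 and 45.5 ppm in cluster 4 of KO libraries D, E and F and 32.5, 31.4 and 17.2 ppm in WT libraries A, B and C, whereas the other cells averaged 46.0 ppm in KO and 30.7 ppm in WT. The difference of effects was 0.73 on the log2 scale for Nupr1 (SE 0.10, limma adjusted p = 5.7e-04). It was 0.63 for Sesn2, 0.57 for the pseudokinase gene Trib3, 0.53 for Asns, 0.53 for the amino acid transporter gene Slc1a4 and 0.40 for Mthfd2.

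**Figure D5:**
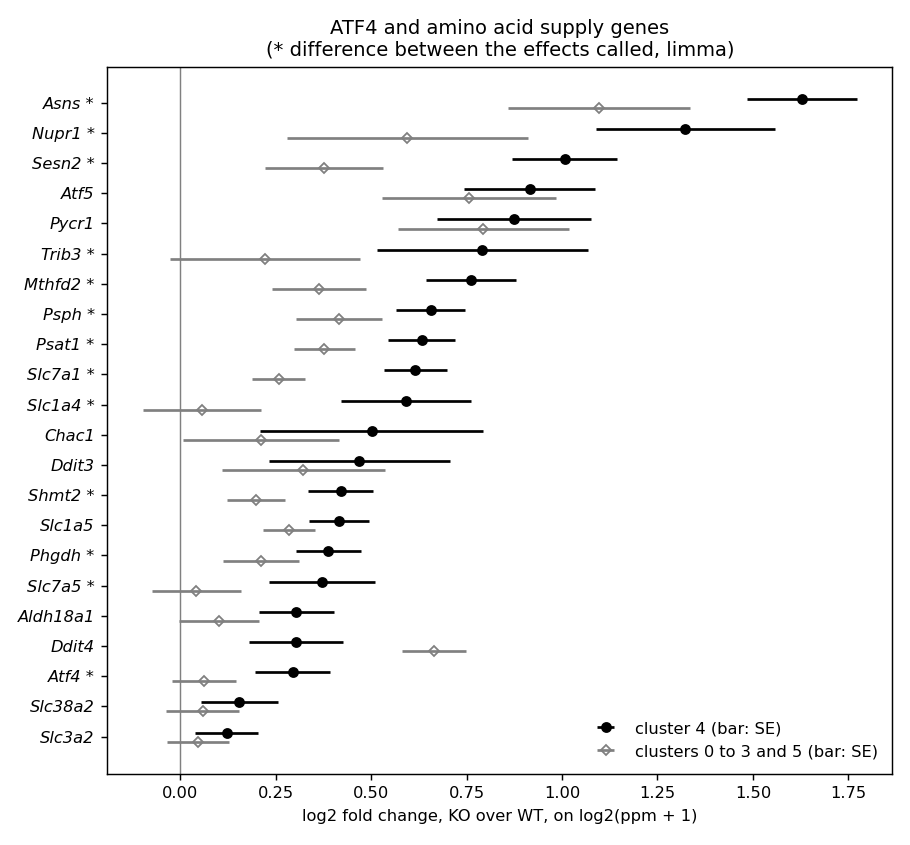
Log2 fold change, KO over WT, of each tested gene of the ATF4 and amino acid list in cluster 4 and in the other cells. Asns stands at 1.63 in cluster 4 and at 1.10 in the other cells, and Nupr1 at 1.32 and 0.59.

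Immediate early genes of T cell receptor signalling had differences of effect mostly on the lower side. Among all genes tested for the difference, 0.983% were higher and 1.95% lower in cluster 4. Within cluster 4, 8 of 25 tested genes rose and 6 fell in KO, with a median of 0.10 on the log2 scale. The difference between cluster 4 and the other cells was lower in cluster 4 for 10 of 25 and higher for 3, with 7 and 2 under the equal-weight mean, 3 and 1 with cells of like depth, and 6 to 8 and 0 to 3 when each library was left out in turn, the fewest (6 and 0) without KO library D. Egr3, a transcription factor induced by calcium and NFAT signals, measured 22.7, 21.7 and 17.2 ppm in cluster 4 of KO libraries D, E and F and 38.0, 45.9 and 57.4 ppm in WT libraries A, B and C, against means of 25.4 ppm in KO and 32.3 ppm in WT in the other cells. Its difference of effects was -0.81 (SE 0.096, limma adjusted p = 1.7e-04). Egr1, a relative of Egr3, measured 27.3, 34.0 and 25.7 ppm in KO and 44.2, 71.7 and 58.7 ppm in WT (difference -0.71, limma adjusted p = 6.6e-04). For both genes all KO libraries were below all WT libraries within cluster 4. Nr4a3 was on the higher side (0.68, limma adjusted p = 0.0082). For genes of glycolysis and hypoxia, 3 rose and 1 fell of 28 within KO cluster 4 (median 0.05), and the difference of effects was higher for 0 and lower for 10, with Tpi1 at -0.33. That count of 10 was 6 without KO library D, 5 without WT library A and 4 without WT library C.

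For the markers, the Ccl20 difference was -0.72 (SE 0.098, limma adjusted p = 5.5e-04): its knockout effect was 0.25 in cluster 4 and 0.96 in the other cells. Cluster membership bounded Ccl20 from below in every library, and the part of that bound in the difference was not tested. The effect on Il2 was 0.49 in cluster 4 and 0.47 in the other cells, a difference of 0.02 (SE 0.049, limma adjusted p = 0.90), which was -0.33 (adjusted p = 0.012) under the equal-weight mean. Il2ra had a larger effect in cluster 4 (difference 0.36, limma adjusted p = 0.0025). Fam46a, a gene for a non-canonical poly(A) polymerase, measured 56.2, 25.1 and 38.7 ppm in KO libraries D, E and F and 18.6, 16.99 and 8.71 ppm in WT libraries A, B and C, and had the highest difference among the named genes (1.09, SE 0.15, limma adjusted p = 5.5e-04). Rab34, a small GTPase gene, measured 20.9, 20.9 and 20.1 ppm in KO and 18.6, 23.7 and 20.8 ppm in WT in cluster 4, with overlapping groups, and its level in the other cells averaged 30.5 ppm in KO and 16.2 ppm in WT (difference -0.90, limma adjusted p = 9.7e-05).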

How the data were processed

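Per the submitters' processing notes, Cell Ranger 3.0.2, Seurat 3.0.0 and build mm10 were used. The deposited table held 1 row per cell with sctransform-corrected counts for 17369 genes, treated here as a score because the authors had adjusted them to a common depth, and the authors' cluster number. It also gave the raw UMI count, with a deposited minimum of 15006, and the percent of mitochondrial UMIs, at most 15.2% in the deposited cells. No further cell filter or doublet caller was applied here. Values were summed per library over cluster 4 and over the other cells and scaled to ppm. Genes averaging 5 ppm or more entered the tests on log2(ppm + 1) with limma 3.58.1 in R 4.3.3, Benjamini-Hochberg threshold 0.05; no count model was used because the deposited values are depth-corrected. The scripts were tested on simulated data. Libraries were tied to a genotype by the table's own group column. Shares of cells were compared by exact permutation of the 6 libraries. Named genes were those with the largest differences among called genes, plus the markers and genes of 36 pathway lists. For KO against WT in cluster 4, the largest rises and falls were taken only from genes whose groups did not overlap. Members and lists were chosen with earlier results of these data known. Lists not described above are counted in the observations at the end. A few genes are not reported here.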

Additional observations from a re-analysis of the deposited data

Results flagged for a closer look

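The knockout effect (KO minus WT, log2) differed between cluster 4 and the other cells by the limma test of the difference for the following genes, each value being the cluster 4 effect minus that of the other cells. It was higher in cluster 4 for Fam46a (1.09), Pkib (1.05), Ccl3 (0.95), Csf2 (0.90), Sox4 (0.84), Nkg7 (0.83), Ccl4 (0.79) and Efna5 (0.75). Genes of the ATF4 list on this side were Nupr1 (0.73), Sesn2 (0.63), Trib3 (0.57), Slc1a4 (0.53), Asns (0.53) and Mthfd2 (0.40), and Il2ra (0.36) joined them.

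The effect was lower in cluster 4 for Bend5 (-1.04), H2-Ab1 (-0.98), Nrn1 (-0.96), Rab34 (-0.90), Egr3 (-0.81), Susd3 (-0.76), Arrb1 (-0.76), Ier3 (-0.75), Fos (-0.72), Ccl20 (-0.72) and Egr1 (-0.71). It was also lower for the glycolysis and hypoxia genes Slc16a3 (-0.62), Bnip3l (-0.48), Tpi1 (-0.33) and Pfkl (-0.24) and for the Th17 genes Tmem176a (-0.62), Tmem176b (-0.61) and Rora (-0.50). For Ccl20, cluster membership bounded the cluster 4 values from below, and the part of that bound in its difference was not tested. Under the equal-weight mean of the clusters, Ccl3 and Ccl4 turned to -0.44 and -0.35 and lost the call. It was also lost for Csf2 (0.67, limma adjusted p = 0.19), Sox4 (0.65, 0.072), Nkg7 (0.37, 0.27), Arrb1 (-0.72, 0.054), Ier3 (-0.57, 0.055), Pfkl (-0.20, 0.12), Tmem176a (-0.26, 0.082), Tmem176b (-0.29, 0.076) and Rora (-0.37, 0.12), each pair giving the difference and the adjusted p. Pkib was not tested within cluster 4 alone because its mean there was under the minimum.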

How the results depend on the processing

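No paired analysis was possible because the libraries in the table carry no replicate numbers. For KO against WT in cluster 4, the lower count was 412 with no filter and 426 with cells of like depth; leaving out 1 library gave 237 to 578 higher and 253 to 624 lower. Without cells sharing a barcode it was 449 higher and 639 lower, and with Ccl20 of at least 10 it was 446 and 607; both were chosen after seeing the data. For the difference of effects, the counts were 0 higher and 0 lower with no filter, 137 higher with median-of-ratios scaling, and 33 and 72 with cells of like depth; leaving out 1 library gave 31 to 86 higher and 75 to 199 lower. Under the equal-weight mean the difference reversed for Ccl3 (-0.44) and Ccl4 (-0.35); for Csf2 it was 0.67 and was lost. Of 425 alternative values for 32 results within cluster 4, 410 kept their call and 15 lost it. Of 214 for 16 differences, 155 kept it, 57 lost it and 2 reversed. Genes under the minimum in a setting had no call there and are in neither total, mostly with a stricter minimum of 20 ppm. Within cluster 4 this also held for Il17a with cells of like depth or without KO library D. It held as well for Ly6a without KO library F and Trmo without WT library A or B. The 49 alternative values for 7 shares stayed within the same side of the threshold, which 3 against 3 libraries cannot reach. The causes were not tested. Leaving 1 library out leaves 2 in a group, and small cluster 4 sums of 112 to 353 cells limit precision for genes near 5 ppm.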

Other observations

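The remaining gene lists gave the following calls in KO against WT cluster 4 cells by limma, beside 5.33% of all genes higher and 7.47% lower. T helper and regulatory lists gave 4 higher and 1 lower of 8 for Th1 genes, among them Nkg7 (1.12), a granule gene, and Stat4 (0.75), 3 and 1 of 8 for Th2 genes, 4 and 2 of 12 for Treg genes and 3 and 3 of 20 for Th9 factors. In the last, Batf3 measured 19.7, 25.1 and 30.3 ppm in KO libraries D, E and F and 7.68, 9.08 and 5.81 ppm in WT libraries A, B and C and rose by 1.61 (SE 0.17, limma adjusted p = 4.4e-05), while it stayed lower than in the other cells of each library. Receptor and signalling lists gave 2 and 0 of 8 for IL-2 and its receptor, 0 and 3 of 22 for calcium and NFAT, 4 and 7 of 35 for proximal T cell receptor signalling, 1 and 1 of 11 for E3 ligases, 3 and 0 of 10 for TNF family receptors, 2 and 0 of 11 for TNF family ligands, 3 and 2 of 18 for costimulatory receptors, 2 and 3 of 10 for inhibitory receptors and 1 and 3 of 14 for the TGF-beta response.

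Chemokines gave 2 higher and 0 lower of 6, and chemokine and homing receptors 0 and 1 of 6. Housekeeping and stress lists gave 0 and 3 of 42 for S phase, 1 and 2 of 42 for G2 and mitosis, 1 and 5 of 32 for MYC and ribosome biogenesis, 4 and 3 of 21 for apoptosis regulators, 3 and 2 of 21 for p53 targets, 2 and 3 of 20 for naive and quiescence genes, 2 and 1 of 8 for type I interferon response genes and 4 and 1 of 15 for MHC class I and peptide loading.

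Many of these counts rested on single libraries. When each library was left out in turn, the higher count ran from 1 to 4 for Th1 genes, 1 to 5 for Treg genes, 2 to 8 for Th9 factors, 2 to 6 for proximal T cell receptor signalling, 1 to 4 for TNF family receptors, 2 to 5 for TNF family ligands, 1 to 5 for costimulatory receptors, 0 to 2 for chemokines, 0 to 2 for type I interferon response genes, 0 to 5 for apoptosis regulators and 2 to 7 for MHC class I and peptide loading. The lower count ran from 3 to 7 for proximal T cell receptor signalling, 0 to 3 for calcium and NFAT, 1 to 6 for MYC and ribosome biogenesis, 1 to 6 for S phase, 1 to 3 for naive and quiescence genes, 0 to 3 for p53 targets and 0 to 3 for apoptosis regulators.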
